A study of Mus musculus with 4 samples.

Results

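A total of 548 H3K9me2 regions lay close to peaks of the histone demethylase PHF2 in mouse neural stem cells. They were chosen by position, as the regions of the H3K9me2 list on chromosomes 1 to 19 whose centre lay within 5 kb of the centre of a PHF2 peak, so their distances and the number of peaks that have one are descriptions. The whole list held 36171 regions, of which 35649 lay on these chromosomes, and the flanking regions made up 1.54% of those 35649. The cells came from wild-type C57BL/6J embryos at E12.5 and were kept in medium with EGF at 20 ng/ml and FGF at 10 ng/ml. There were 4 samples with 1 in each group, namely a ChIP of PHF2 (antibody D45A2), a ChIP of H3K9me2 (antibody ab1220) and an input for each, and all shared the wild-type genotype. The labels do not say how many embryos or cultures were used. The values were positions from 1 list per target, so no spread between cultures could be measured, and every interval below covers counting error only and treats regions as independent.

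PHF2 is a histone demethylase whose PHD finger binds H3K4me3, the mark of active promoters. H3K9me2, histone H3 dimethylated at lysine 9, is laid down mainly by the methyltransferases EHMT1 and EHMT2, marks silent chromatin and is described as a substrate of PHF2. DNA rich in CpG dinucleotides around a transcription start is a common promoter type, and much of it is free of repressive marks.

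The PHF2 list held 5992 peaks, 5926 of them on chromosomes 1 to 19, with a score between 100.02 and 3226, the authors' own value per peak, which serves only to rank peaks within that list. H3K9me2 regions were short, with a median length of 73 bp, which is also the minimum, and a maximum of 367 bp, and they carried no value of their own. Strong and marginal calls could therefore not be told apart among them, and the regions named below are calls of unknown strength. The minimum length was that of 56.9% of the flanking regions and 55.5% of the other regions on chromosomes 1 to 19. The depth of the libraries is unknown. All 7 markers of neural stem cells that were checked (Nes, Vim, Sox2, Sox9, Pax6, Hes1 and Fabp7) had a PHF2 peak at a promoter, against 1 of 10 markers of neurons, glia, microglia and endothelium on chromosomes 1 to 19, the synaptic gene Syt1. These 7 are part of a list of 23 neural stem cell genes, of which 19 had a PHF2 peak overlapping the promoter. Of 24 neurogenic and migration genes 18 had one as well, so such peaks were not confined to stem cell genes. By the same rule, 6235 of 20698 coding genes had one.

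Only 4 of the 548 flanking regions overlapped a PHF2 peak, and their sequences are shown first because they are the places where both lists meet. Sequences are from mm10, plus strand, 5′ to 3′, and capitals mark CpG dinucleotides.
Neurod1, chr2:79457655-79457727: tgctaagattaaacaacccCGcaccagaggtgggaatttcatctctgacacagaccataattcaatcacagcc
4931414P19Rik, chr14:54602730-54602826: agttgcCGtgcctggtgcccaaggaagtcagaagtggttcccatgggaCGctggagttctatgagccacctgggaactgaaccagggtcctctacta
Hjurp, nearer region, chr1:88278410-88278516: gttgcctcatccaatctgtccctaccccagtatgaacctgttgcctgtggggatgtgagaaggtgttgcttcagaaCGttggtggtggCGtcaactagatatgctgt
Hjurp, farther region, chr1:88279197-88279280: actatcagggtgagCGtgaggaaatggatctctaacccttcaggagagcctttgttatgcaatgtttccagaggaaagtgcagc
The region at Neurod1, a bHLH transcription factor gene active in neuronal differentiation, lay 56 bp from the centre of a PHF2 peak with a score of 231. It was the nearest of all to a peak centre and lay upstream, 940.5 bp before the start of Neurod1, in an intron of the noncoding gene Gm26755. At Hjurp, whose product loads CENP-A onto centromeres, both regions lay upstream within 1 PHF2 peak (score 144), 830.5 bp and 1606 bp before the start and in an intron of the neighbouring ion channel gene Trpm8. The fourth region, 522.5 bp from the centre of a peak with a score of 161, lay in an intron of 4931414P19Rik, and 55.7% of its bases were soft-masked as repeats. These 4 regions held between 1 and 2 CpG dinucleotides each.

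The regions beside the 3 highest-scoring PHF2 peaks that had one are shown next.
Igfbp3, chr11:7217364-7217464: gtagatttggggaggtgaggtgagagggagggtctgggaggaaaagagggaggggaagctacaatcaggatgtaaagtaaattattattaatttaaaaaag
Nes, chr3:87976526-87976598: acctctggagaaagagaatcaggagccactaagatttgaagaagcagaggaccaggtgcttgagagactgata
Ptch1, chr13:63560749-63560856: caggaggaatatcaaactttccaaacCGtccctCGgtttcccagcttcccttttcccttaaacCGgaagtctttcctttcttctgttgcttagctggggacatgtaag
The highest of these peaks (score 1875) belonged to Igfbp3, which encodes a secreted binding protein of insulin-like growth factors, and its region lay 3517.5 bp upstream of the start in intergenic DNA, 87.1% soft-masked as repeat. The region at Nes, which encodes the intermediate filament nestin of neural progenitors, lay in a coding exon of the gene, 4095.5 bp from the centre of a broad PHF2 peak (score 1694). That peak overlapped the Nes promoter, but its centre lay 1338 bp from the nearest coding start, so no side was assigned. The region at Ptch1, which encodes the receptor of Hedgehog ligands, lay 4471 bp into the gene in an intron (PHF2 score 1354) and held 3 CpG dinucleotides. The longest flanking region, with 216 bp, is given for scale.
Longest flanking region, chr3:65662767-65662982: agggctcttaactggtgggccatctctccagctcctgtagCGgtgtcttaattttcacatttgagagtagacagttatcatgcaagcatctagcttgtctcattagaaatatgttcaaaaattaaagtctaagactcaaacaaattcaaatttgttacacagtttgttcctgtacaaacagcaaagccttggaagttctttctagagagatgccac
It lay in intergenic DNA, 3677.5 bp from the centre of a PHF2 peak with a score of 161. It held 1 CpG dinucleotide, and its GC content was 38.9%.

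The flanking regions lay at 507 of the 5926 PHF2 peaks, 8.56% (95% exact binomial interval 7.86% to 9.30%). Of these peaks, 469 had 1 region, 35 had 2 and 3 had 3. Distances to the peak centre had a median of 3011 bp, with quartiles of 2023 and 3906 bp. A single region lay within 0.5 kb of a peak centre, and 21 lay between 0.5 and 1 kb. The next kilobases held 113 (1 to 2 kb), 138 (2 to 3 kb), 145 (3 to 4 kb) and 130 (4 to 5 kb). The median gap between a region and the edge of its peak was 2221.5 bp. Just inside the limit of 5 kb lay a region at Atxn3 (4994 bp) and one at Mrpl50 (4985 bp). Just outside it lay regions at Ctcf (5013.5 bp) and Thada (5050 bp).

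The 10 regions nearest to a PHF2 peak centre, all within 819.5 bp, sat at peaks of low to middling score, between 115 and 316. Beside Neurod1, Hjurp and 4931414P19Rik they lay at Dglucy, Abcg2 (a drug efflux transporter), Mrps10 (a mitochondrial ribosomal protein), Dld (the dehydrogenase subunit shared by the 2-oxoacid dehydrogenase complexes), Snu13 (a spliceosome and snoRNP protein), Ccnq (a cyclin partner of CDK10) and Ddx1 (an RNA helicase). Of the 10, 5 lay upstream, 4 lay into the gene and 1 had no start. The region at Dld came within 54 bp of the peak edge and that at Snu13, 152 bp long with 5 CpG dinucleotides, within 79 bp. The 10 longest flanking regions, of 156 to 216 bp, lay 1426 to 4062.5 bp from the peak centre, a range that held the median of all flanking regions (3011 bp). Beside the longest, they lay at Aldh3a2, Rasa3, Mrpl17, Oma1, Osbpl8, Morf4l1, Erp44, Cse1l and Daglb.

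The side of a region was read from the strand of the coding start nearest to its PHF2 peak, where that start lay within 1 kb of the peak centre. Of the 548 regions, 266 lay upstream of the start and 194 lay into the gene. A further 56 lay at divergent pairs, where coding starts on both strands fell within 1 kb of the peak centre, and 32 at peaks with no such start. Of the 460 regions with a side, 57.8% lay upstream (95% exact binomial interval 53.2% to 62.4%). Upstream regions had a median distance of 2834 bp from the peak centre and regions into the gene one of 3146 bp. Between 0.5 and 1 kb from the peak centre, 13 were upstream and 5 into the gene, from 1 to 2 kb the numbers were 59 and 38, and from 4 to 5 kb they were 54 and 50. Regions on both sides had the same median GC content, 45.2%.

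**Figure D1:**
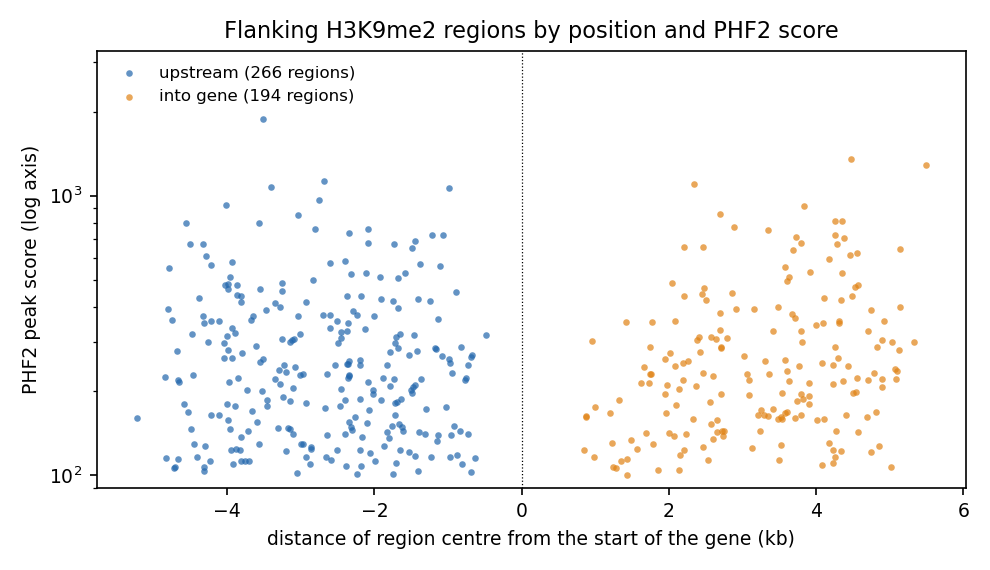
Each point is an H3K9me2 region with an assigned side, plotted by the distance of its centre from the coding start (kb, upstream negative) and by the score of its PHF2 peak (log axis). The 266 upstream and 194 into-gene regions span the range of scores, and few lie within 1 kb of the start.

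To see whether this arrangement went with PHF2, densities were measured around CpG-rich coding starts with and without a PHF2 peak. A start was CpG-rich when the 1000 bp around it had a CpG observed/expected ratio of at least 0.6 and a GC content of at least 50%. There were 12284 such starts of 5669 genes with a PHF2 peak centre within 1 kb and 9426 starts of 4723 genes with none within 10 kb. Each base was counted once, for its nearest start. Within 5 kb there were 489 regions, 9.56 per Mb (95% Poisson interval 8.73 to 10.5), around starts with PHF2 and 390 regions, 8.72 per Mb (7.88 to 9.63), around starts without it. The ratio was 1.10 (95% interval 0.958 to 1.26), so the densities were not told apart at these counts. By gene, 511 of the 5669 (9.01%, 8.28% to 9.79%) had a region within 5 kb of a start with PHF2, and 395 of the 4723 (8.36%, 7.59% to 9.19%) had one without PHF2. The median distance from the start was 2938.5 bp with PHF2 and 2754 bp without.

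The gap in H3K9me2 regions at the start was present in both classes. Within 0.5 kb there was 1 region in 5.94 Mb around starts with PHF2, 0.168 per Mb (0.00426 to 0.938), and there were 3 in 5.07 Mb without PHF2, 0.592 per Mb (0.122 to 1.73). The DNA within 0.5 kb had a GC content of 62.2% with PHF2 and 60.9% without, and the part of GC in the gap was not tested. From 0.5 to 1 kb the densities were 6.12 per Mb with PHF2 and 6.87 per Mb without. From 1 to 2 kb they were 9.90 per Mb with PHF2 and 10.3 per Mb without. From 2 kb outward the starts with PHF2 had the slightly higher values, 11.8 per Mb with and 10.4 per Mb without from 2 to 3 kb, and 12.3 per Mb with and 10.1 per Mb without from 3 to 4 kb. The ratio from 3 to 4 kb was 1.22 (95% interval 0.919 to 1.62), and the interval held 1 in each of the 6 distance classes. The DNA from 3 to 4 kb was also lower in GC around starts with PHF2, 43.9%, than around those without, 45.9%, and the part of GC in these values was not tested. At 19669 CpG-poor starts (CpG observed/expected below 0.4) of 10562 genes without PHF2 nearby, a class added after the densities above had been seen, the density within 0.5 kb was 11.9 per Mb (10.2 to 13.7), close to the 12.2 per Mb within 5 kb.

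**Figure D2:**
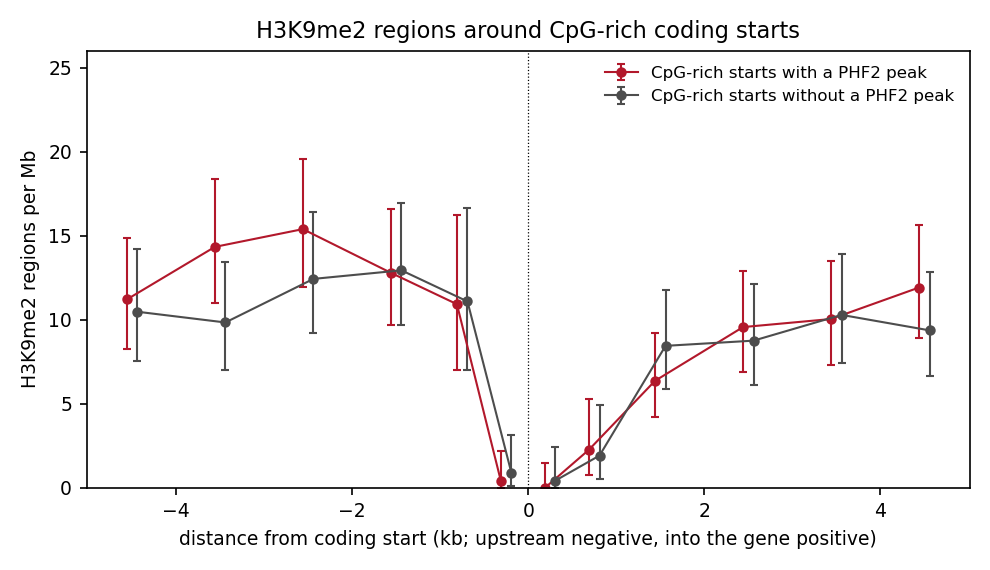
H3K9me2 regions per Mb (y axis) by distance from CpG-rich coding starts (kb, upstream negative) for non-divergent starts with and without a PHF2 peak, with 95% exact Poisson intervals and points drawn slightly apart. Both classes fall below 1 region per Mb within 0.5 kb, and in both the density recovers more slowly into the gene than upstream.

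The lean towards the upstream side was likewise present at CpG-rich starts with and without PHF2. Around non-divergent starts with PHF2 there were 258 regions upstream, 11.7 per Mb (10.3 to 13.2), and 171 into the gene, 7.68 per Mb (6.57 to 8.92), a ratio of 1.52 (95% interval 1.25 to 1.86). Without PHF2 there were 208 upstream, 10.2 per Mb, and 156 into the gene, 7.51 per Mb, a ratio of 1.36 (1.10 to 1.68), with 57.1% of regions upstream. That 57.1% counts regions within 5 kb of starts, whereas the 57.8% of flanking regions counts those within 5 kb of peak centres. The like comparison is between the ratios, 1.52 and 1.36. The difference between sides was steepest close to the start. Between 0.5 and 1 kb the ratio of upstream to into-gene density was 4.82 (1.80 to 16.2) with PHF2 and 5.78 (1.97 to 23.0) without. From 4 to 5 kb it was 0.940 (0.622 to 1.42) with PHF2 and 1.12 (0.702 to 1.79) without. Upstream density was 1.15 times as high with PHF2 as without (0.95 to 1.38). The sides differed in their DNA, since exons made up 10.5% of bases upstream and 21.4% into the gene around starts with PHF2, and soft-masked repeats 28.7% upstream and 20.7% into the gene. The part of these differences in the lean was not tested. At the CpG-poor starts, the densities were 12.2 per Mb upstream and 12.1 per Mb into the gene.

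The share of peaks with a flanking region within 5 kb differed little by PHF2 score. This share was 8.44%, 8.37%, 9.39% and 8.03% from the lowest to the highest quartile of score, and each interval held the share of all peaks. The ratio of the highest to the lowest quartile was 0.951 (95% interval 0.734 to 1.23). The median score was 231 at the 507 peaks with a region and 229 at the 5419 without one. From the lowest to the highest quartile, the median distance of regions from the peak centre was 2514, 3149.5, 3027.5 and 3351.5 bp, and the median gap to the peak edge was 1953.5, 2460, 2267.5 and 2241 bp. The lowest quartile thus had the smallest values of both, with no steady order among the other 3. Peaks had median lengths of 1032, 1185, 1419 and 1960 bp in these quartiles. Within 3 kb of the centre, the ratio of shares between the highest and the lowest quartile was 0.587 (0.401 to 0.852). Within 3 kb measured between nearest edges, an alternative added after the data had been seen, it was 1.02 (0.757 to 1.38). The share of regions on the upstream side was 64.7% in the lowest quartile (55.4% to 73.2%) and lay between 50.4% and 58.5% in the others.

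**Figure D3:**
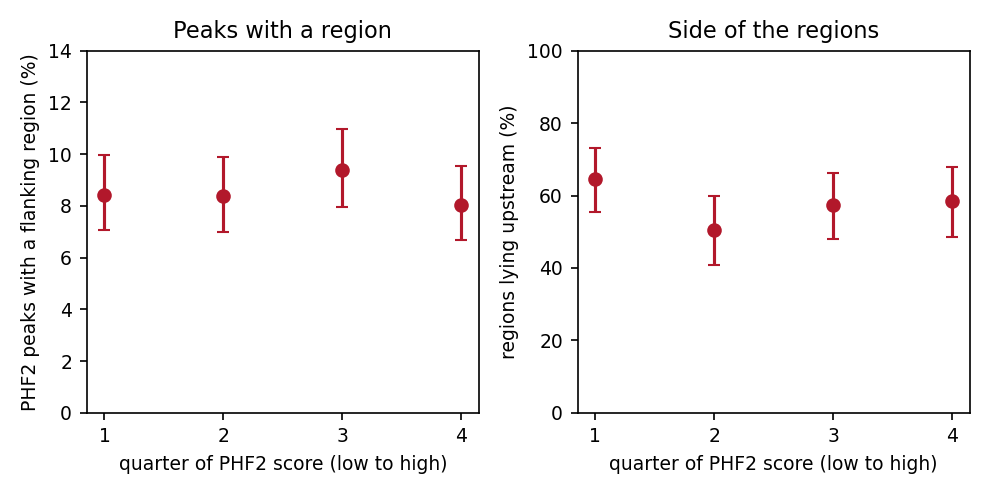
Share of PHF2 peaks with an H3K9me2 region within 5 kb (left, %) and share of sided regions that lie upstream (right, %), by quartile of PHF2 score from low to high, with 95% exact binomial intervals. The shares of peaks lie between 8.03% and 9.39%, and the intervals overlap in both panels.

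The 15 highest-scoring PHF2 peaks with a flanking region held 16 regions and ranked between 33 and 311 among the 5926 peaks by score. Receptors, a calcium pump, scaffold proteins and enzymes are among their products. Fgfr1, a receptor of FGF, had its region 2697 bp into the gene (score 861), and Plxna2, a semaphorin receptor, had one 3840.5 bp into the gene (score 921), both in introns. Tanc1, which encodes a postsynaptic scaffold protein, had an intronic region 5493 bp from its start (score 1289), and Adamts1, a secreted metalloprotease, had one in a coding exon at 2342 bp (score 1097). Upstream regions lay at Chn2 (a Rac GTPase-activating protein, 2681.5 bp, score 1125), Nrip1 (a nuclear receptor corepressor, 3401.5 bp, score 1073), Tmem158 (986.5 bp, score 1063), Atp2a2 (the calcium pump SERCA2, 2751.5 bp, score 961), Sh3rf1 (a scaffold of JNK signalling, 4012.5 bp, score 925) and Pik3r3 (a regulatory subunit of PI 3-kinase, 3038.5 bp, score 854). Usp1, a deubiquitinase of DNA crosslink repair, had a region in a coding exon 4346.5 bp into the gene (score 813), and Cdh2, the gene of N-cadherin on chromosome 18, had 2. With Igfbp3, Nes and Ptch1 these are all 15, and of their regions 7 lay upstream, 6 into the gene and 3 had no side.

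Among genes with a PHF2 peak centre within 1 kb of a coding start, 535 of 6093 (8.78%) had a flanking region, and the 9 gene lists were read against that share. Of 15 neural stem cell genes with such a peak, 0 had a region, which allows a share of up to 21.8% (95% exact binomial bound). With peaks tied to genes by overlap with the promoter, a rule added later, it was 1 of 19, namely Nes, and the share over all coding genes was 8.76% (546 of 6235). Among neurogenic and migration genes it was 1 of 15, Neurod1, and among ERK feedback genes 1 of 10, the phosphatase gene Dusp5, with a region 4453.5 bp into the gene. By overlap these were 1 of 18 and 1 of 16. Cell cycle genes had 3 of 25, the phosphatase gene Cdc25a and the pocket protein gene Rbl1, both with regions upstream (4804.5 and 3988 bp), and the cyclin gene Ccnb1, 4850.5 bp into the gene. DNA repair genes had 2 of 20, Usp1 and Brca2, and the region of Brca2 lay 3625.5 bp into the gene. By overlap, cell cycle genes had 3 of 27, and the count for repair genes was the same.

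Genes that write, read or erase H3K9 methylation had 2 of 15. Kdm1a, which encodes a demethylase of H3K4 and H3K9, had a region in its own intron 4539 bp from the start (PHF2 score 198). Cbx5, which encodes the H3K9 methyl reader HP1 alpha, shares a divergent PHF2 peak (score 558) with the splicing factor gene Hnrnpa1, and the region lay in an intron of Cbx5. RNA splicing genes had 4 of 36, Hnrnpa1, Srsf3, Srsf5 and Srsf11, and by overlap 5 of 37, with Srsf10 added. The region of Srsf11 also lay at a divergent peak, in an intron of the partner gene Lrrc40, with a GC content of 24.7%. Zinc finger genes had 16 of 132 (12.1%, 7.09% to 18.9%), with the highest PHF2 scores at Zfp866 (620), Zfp41 (463), Zfp518a (448) and Zfp638 (391), and 16 of 134 by overlap. Cytosolic ribosomal protein genes, nearly all of which had a PHF2 peak (71 of 76), had 1 of 71 (1.41%, 0.0357% to 7.60%), Rps20, with a region 3552.5 bp upstream. The counts for ribosomal protein and H3K9 methylation genes were the same by overlap. No list was tested against the others.

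By annotation at their centre, 254 flanking regions (46.4%) lay in introns of coding genes and 212 (38.7%) in intergenic DNA. Another 29 lay in introns of noncoding genes, 27 in noncoding exons, 14 in coding exons and 12 in UTRs. The DNA within 5 kb of PHF2 peak centres was 48.3% coding gene intron and 30.3% intergenic, so intergenic DNA was more common among the regions (95% exact binomial interval 34.6% to 42.9%) than in the DNA around them. Coding exons held 2.55% of the regions (1.40% to 4.25%) and 4.19% of that DNA, and UTRs held 2.19% of the regions (1.14% to 3.79%) and 6.05% of the DNA. The intervals for coding and noncoding exons held the share of the DNA, and that for UTRs did not. Exons and UTRs made up 44.2% of DNA within 0.5 kb of CpG-rich starts with PHF2, where 1 region lay, and 11.5% from 4 to 5 kb. The part of distance from the start in these shares was not tested. Of the 194 regions into the gene, 190 lay inside it and 4 past its end, and 164 were in introns of coding genes. Of the 266 upstream regions, 190 were intergenic and 39 lay in introns of coding genes. Some of these introns belonged to the same gene, as at Tmpo and Baz1a, because upstream was read from the start nearest to the peak.

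**Figure D4:**
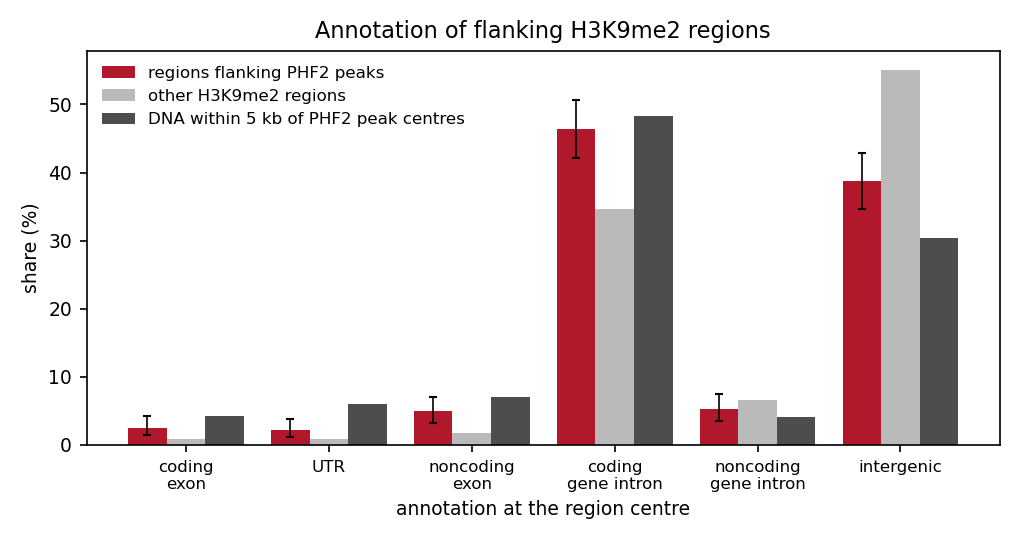
Share (%) of the 548 flanking regions, the 35101 other H3K9me2 regions on chromosomes 1 to 19 and the bases within 5 kb of PHF2 peak centres in each annotation class. Error bars on the flanking regions are 95% exact binomial intervals. UTRs take a smaller share of the regions than of the DNA around PHF2 peaks, and intergenic DNA a larger one. The intervals for coding and noncoding exons hold the share of the DNA.

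In length and repeats the flanking regions were close to the rest of the list. The minimum length of 73 bp was that of 56.9% of them (52.7% to 61.1%) and of 55.5% of the 35101 other regions. Bases soft-masked as repeats made up 22.7% of the flanking regions and 22.3% of the others. The DNA within 5 kb of PHF2 peak centres was 24.2% soft-masked, and chromosomes 1 to 19 were 33.5% soft-masked. The GC content had a median of 45.2% (quartiles 38.4% and 50%) in the flanking regions and 42.5% (36.7% and 47.9%) in the others. The 5 kb windows had 46.5% GC, against 41.9% for the chromosomes. CpG dinucleotides were absent from 263 of the 548 flanking regions (48.0%, 43.7% to 52.3%) and from 59.3% of the others. The 390 regions around CpG-rich starts without PHF2 had nearly the same median GC content as the flanking regions, 45.3%, and 23.6% of their bases were soft-masked. Density was 9.51 regions per Mb in the 5 kb windows and 14.9 per Mb over chromosomes 1 to 19.

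Of the 38 peaks with 2 or more regions, 21 had all of them on 1 side of the peak centre and 17 had them on both sides. At 10 of the 38 the centres spanned no more than 1 kb. Of the 548 flanking regions, 24 (4.38%) had another region centre within 1 kb, against 4.20% of the other regions. Cenpv, which encodes centromere protein V, had 3 regions upstream, between 2181.5 and 3815.5 bp from the start (PHF2 score 437). Seh1l, which encodes a nucleoporin, had 1 region upstream and 2 into the gene, and Smim10l1, which encodes a small membrane protein, had 2 upstream and 1 into the gene. The regions of Seh1l and Smim10l1 thus lay on both sides of their peaks.

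The peaks with a region but with no coding start within 1 kb of their centre numbered 29, and they held 32 regions. Of 393 such peaks in all, 7.38% (5.00% to 10.4%) had a region, against 8.76% of peaks at single starts and 7.79% at divergent pairs. Of the 29 peaks, 7 overlapped a promoter all the same, those at Nes, Cdh2, the cadherin gene Cdh20, Adm (the vasodilator peptide adrenomedullin), Zbtb10, Basp1 (a growth-cone membrane protein) and the splicing factor gene Srsf10. A further 15 lay more than 10 kb from any coding start.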

How the data were processed

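Neural stem cells gave 1 ChIP-seq library for PHF2 and 1 for H3K9me2. Input libraries were not used here. Per the file headers, MACS run in Galaxy produced the PHF2 peaks, which carry the authors' score per peak, of unstated scale. How the H3K9me2 regions were called, with which test and threshold, is not given in the sources used here beyond a p value in the name of the list. Its deposited score column holds 0 throughout. The submitters' processing notes list Bowtie2 and mm10. The lists give no read totals.

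Coding starts came from GENCODE M21, and sequence and soft-masking from RefSeq GRCm38.p6, the same build as mm10. Densities per Mb have exact Poisson intervals, ratios of densities exact conditional intervals, and shares exact binomial ones, all at 95% (Python 3.11.15, NumPy 2.4.6, SciPy 1.17.1). With 1 sample per group no test was made. The density code was tested on simulated regions. The regions, lists and comparisons were chosen with earlier results of these data known. Genes were named where a region overlapped a PHF2 peak, for the 10 nearest and 10 longest regions, the 15 highest-scoring peaks with a region, peaks with 3 or more regions, up to 4 genes per list, and the regions on either side of 5 kb. Alternatives changed the distance, its measure, the starts, the CpG limits, the PHF2 score, the minimum region length, clustering and the chromosomes.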

Additional observations from a re-analysis of the deposited data

Results flagged for a closer look

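Some H3K9me2 regions lay off chromosomes 1 to 19, outside the comparisons of the report (X was added as an alternative). X held 462 regions, of which 0 lay within 5 kb of the centre of any of its 66 PHF2 peaks, which allows a share of peaks with a region of up to 5.44% (95% exact binomial bound). The density of regions over the whole of X was not computed, and the 14.9 per Mb over chromosomes 1 to 19 need not hold for X. The 0 therefore has no background for X beside it and does not show that PHF2 peaks there lack regions. Unplaced or unlocalised scaffolds held 60 regions and no PHF2 peak.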

How the results depend on the processing

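Of 66 values under 11 alternatives, 48 moved but stayed inside the 95% interval of the reported value, 11 left it, and 7 were identical to it. Among these 7 were values of the flanking regions with X added, which could not change because X held no flanking region. The upstream share without PHF2 could not change for the higher-scoring 50% of peaks, because that class always used the whole PHF2 list. The density ratio between starts with and without PHF2 stayed between 1.00, with CpG observed/expected of at least 0.75, and 1.13, with X added. As reported, median CpG observed/expected was 0.825 at starts with PHF2 and 0.743 at those without. The part of this difference in the ratio was not tested. The ratio of the highest to the lowest quartile of score, 0.951 as reported, was above 1 within 10 kb (1.05), between nearest edges (1.04) and for regions longer than the minimum (1.23), each with an interval that held 1. The share of peaks with a region was 4.39% within 3 kb, 16.9% within 10 kb, 10.0% with distance between nearest edges and 3.86% for regions longer than the minimum, and the median distance was 2020.5, 5205 and 2544.5 bp for the first 3 of these and 3177 bp for the higher-scoring 50% of peaks. These shifts follow from the distance or the number of regions allowed, except the last, whose cause was not tested. Within 3 kb, the ratio of upstream to into-gene density at starts with PHF2 was 1.98 and the upstream share without PHF2 was 62.7%. Both follow from the shorter distance, because the difference between sides was steepest close to the start. The ratio of the quartiles was 0.587 within 3 kb, and 1.02 within 3 kb between nearest edges, the alternative added later. The cause of that shift was not tested. No paired analysis was possible because each group had 1 sample. The numbers of regions limit what can be told apart: the density ratio has a 95% interval of 0.958 to 1.26, and depth is unknown.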

Other observations

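The share of PHF2 peaks with a flanking region ranged over chromosomes from 4.99% (20 of 401 peaks) on chromosome 5 to 13.3% (28 of 211 peaks) on chromosome 16. These are the lowest and highest values over chromosomes 1 to 19, where the share of all peaks was 8.56%. The density of regions per chromosome was not computed, so the range does not show that peaks on any chromosome are particularly flanked.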
